A study of Mus musculus with 9 samples.

Results

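Transcription of the genes for histone lysine-modifying enzymes was followed by PRO-seq through a step of mouse red cell maturation. The members are the rows of the gene-body count table whose symbol opens with Kdm, Setd, Hdac, Sirt or Suv and carries a later digit, together with Ezh1, Ezh2, Eed, Ehmt1, Ehmt2, Dot1l, Nsd1, Whsc1, Kat2a, Kat2b, Ep300 and Crebbp. The rule found 63 of the 24391 genes in the table and used names alone, no measured value. Of these 63 genes, 62 passed the filter on low counts. The remaining one, the Y-linked H3K4 demethylase gene Kdm5d, had 1 read over the 9 libraries and was not tested.

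PRO-seq (precision nuclear run-on sequencing) reads RNA still held by engaged RNA polymerase, so its counts follow transcription rather than the amount of message or protein. The 9 libraries come from 2 related mouse lines. The untreated G1E group (n = 2) is an erythroid progenitor line without functional GATA1, the factor on which red cell maturation depends. G1E-ER4 is G1E expressing GATA1-ER, a fusion of GATA1 to a hormone-binding domain of the oestrogen receptor that estradiol switches on. For G1E-ER4 there are 3 libraries at 0 h without estradiol, and 2 each after 13 h and 24 h of estradiol at 100 nM. The 4 groups shared a medium with erythropoietin and kit ligand. No G1E library with estradiol is among them, so GATA1-ER activation, estradiol itself and time in culture cannot be told apart. The promoter of the GATA1-ER transgene, and whether each line is 1 clone, are not stated by the labels. Whether replicates are separate cultures is not in the labels, and p-values here measure only the spread between libraries, which may be technical.

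Histone tails carry acetyl and methyl groups on lysines. Acetyltransferases such as p300 and CBP add acetyl groups at active enhancers and promoters, and deacetylases, which include the class I enzymes and the NAD-dependent sirtuins, remove them. Methyltransferases act on particular lysines: marks on H3K4, H3K36 and H3K79 accompany transcription, whereas H3K9 methylation and the H3K27 methylation laid down by Polycomb repressive complex PRC2 accompany silencing, and demethylases of the LSD1 and Jumonji families take methyl groups off again. In red cell precursors these systems act while the nucleus condenses, and GATA1 is known to work with partners that recruit deacetylases and LSD1.

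Gene-body counts totalled 37830789 to 139945759 reads per library, and the members took 0.895% to 1.07% of them. Values are given as CPM, gene-body reads scaled to a common library size by TMM (a normalization that assumes most genes keep their level), and comparisons as the log2 fold change ± its standard error (SE) from edgeR's quasi-likelihood test. A member was called where the adjusted p was under 0.05 over all 13825 genes tested. CPM are not divided by gene length, so a value is compared between libraries and never between genes. Of the marker lists, 10 erythroid genes summed to 967 to 1264 CPM in G1E, 1055 to 1196 at 0 h, 2511 to 3025 at 13 h and 4793 to 5661 at 24 h. A list of 6 mast cell and basophil markers summed to 74.1 to 189 CPM in G1E and 94.4 to 137 at 0 h, with Mcpt8 at 0 reads in both groups, and to 2.73 to 6.07 at 13 h and 0.260 to 0.603 at 24 h, where Ms4a2, Fcer1a, Mcpt8 and Gzmb were at 0 reads. A list of 7 megakaryocyte markers summed to 59.9 to 66.4, 37.8 to 53.7, 132 to 135 and 73.3 to 116 CPM in the same order of groups, while 6 of 7 listed granulocyte and monocyte markers, those in the table, stayed at or under 0.339 and 6 lymphocyte markers at or under 1.80 CPM. The mast cell and megakaryocyte lists thus moved with time in estradiol, and their part in the results below was not tested. In these bulk libraries, fewer cells of a type and less nascent RNA per cell cannot be told apart. Gata1 itself gave 164 to 301 CPM over the 9 libraries, and since the part of the gene missing in G1E is not in the labels, its gene-body count does not check the genotype.

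The question put to the time course was which of these enzymes change their transcription as GATA1-ER acts. After 24 h, the histone demethylase genes were higher as a group and most H3K9 methyltransferase genes lower. Of 17 demethylase genes tested, 14 rose and Kdm1b fell, whereas 5 of the 6 H3K9 methyltransferase genes fell and Setdb2 rose. The largest increases belonged to the deacetylase gene Sirt2 (2.95 ± 0.25), the demethylase gene Kdm7a (2.56 ± 0.18), the class IIa deacetylase gene Hdac5 (2.17 ± 0.23), the PRC2 methyltransferase gene Ezh1 (2.12 ± 0.14) and the H4K20 methyltransferase gene Suv420h2 (2.00 ± 0.12). The largest decreases belonged to the class IIa deacetylase gene Hdac7 (-3.61 ± 0.23), the acetyltransferase gene Kat2a (-3.46 ± 0.49) and the methyltransferase gene Setd4 (-2.29 ± 0.19).

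At 24 h against 0 h, 30 of 62 members rose and 15 fell, beside 29.0% of all tested genes that rose and 30.7% that fell (59.7% in either direction). At 13 h, 23 rose and 11 fell, beside 20.1% and 20.9% (41.0% together). The counts by role group stand beside these same shares of all tested genes. Without the first library at 13 h, 7 members fell at that time. The median change of the members was 0.24 at 24 h and 0.09 at 13 h, and that of all tested genes was -0.07 and -0.02. These directions depend on the scaling, since scaling by total counts instead of TMM shifts the median of all genes to -0.45 at 24 h and -0.12 at 13 h. Under total counts, 21 members rose and 24 fell at 24 h, beside 18.9% and 42.4% of all tested genes. At 13 h, 20 rose and 16 fell under total counts, beside 17.0% and 24.3%. The members' median lay 0.30 above that of all genes at 24 h and 0.11 above it at 13 h, a difference that a change of scaling leaves nearly alone by construction. The 15 members that fell at 24 h also fell under total counts, and 21 of the 30 that rose still rose. The other 9 were no longer called: Ezh2, Kat2b, Kdm2b, Kdm4b, Setd5, Setd7, Sirt3, Sirt6 and Suv420h1, the last with its sign turned.

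**Figure D1:**
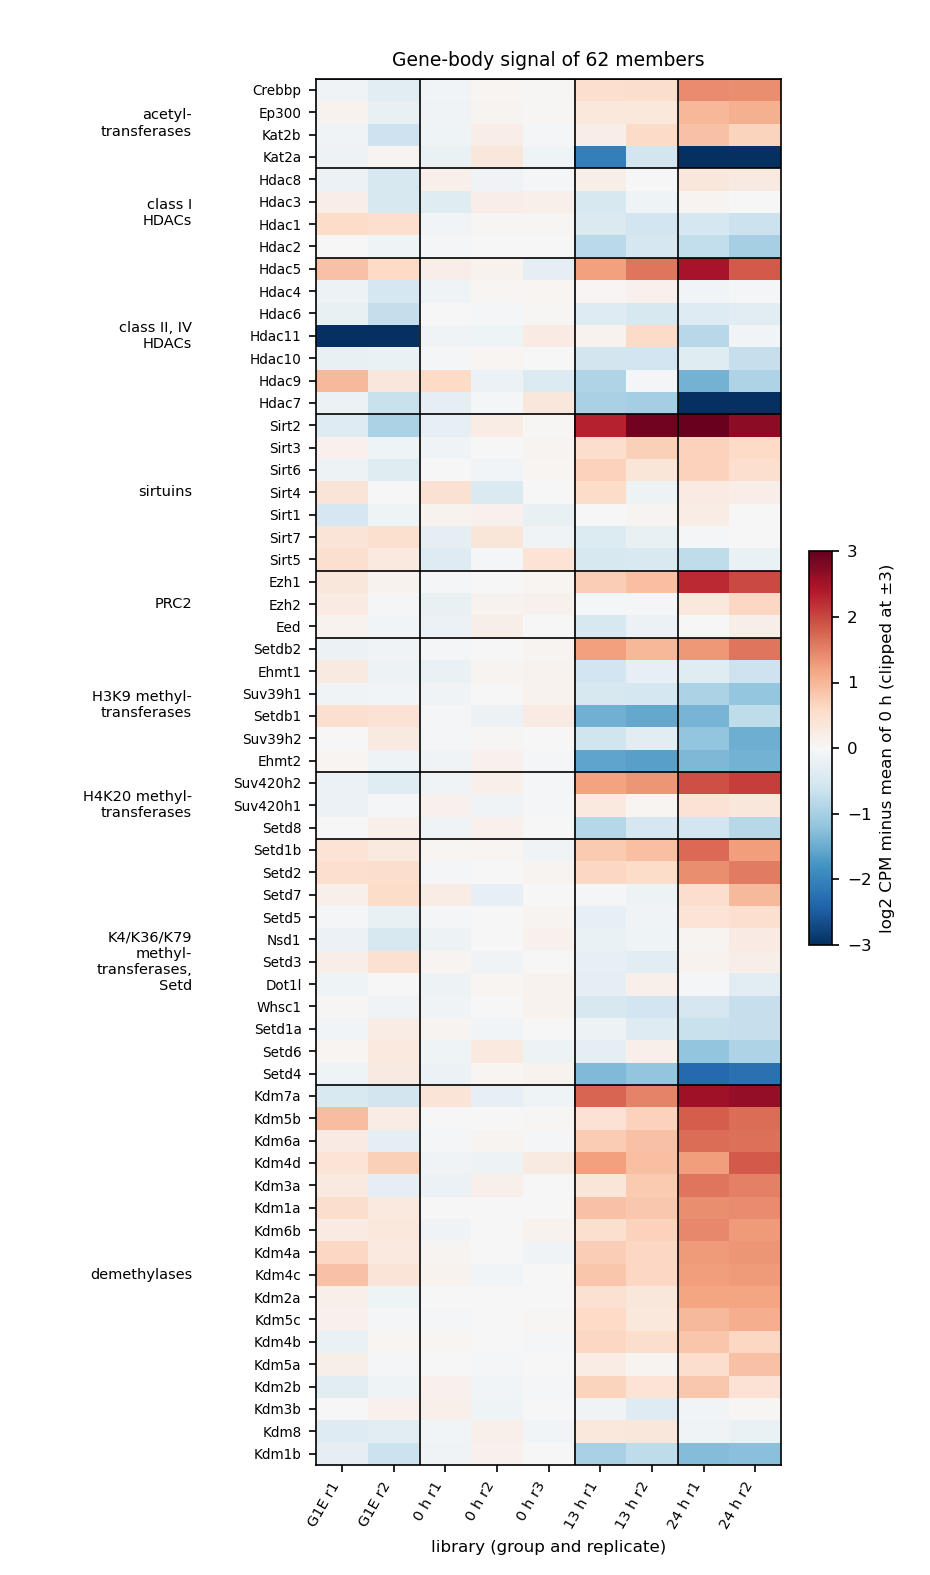
Heat map of the gene-body signal of the 62 tested members (rows, by role and then by change at 24 h) in the 9 libraries (columns), as log2 CPM minus the mean of the 3 libraries at 0 h, with colour clipped at 3 in either direction. The demethylase block turns red at 13 h and more so at 24 h, the H3K9 methyltransferases turn blue apart from Setdb2, and Hdac11 is dark blue in both G1E libraries.

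**Figure D2:**
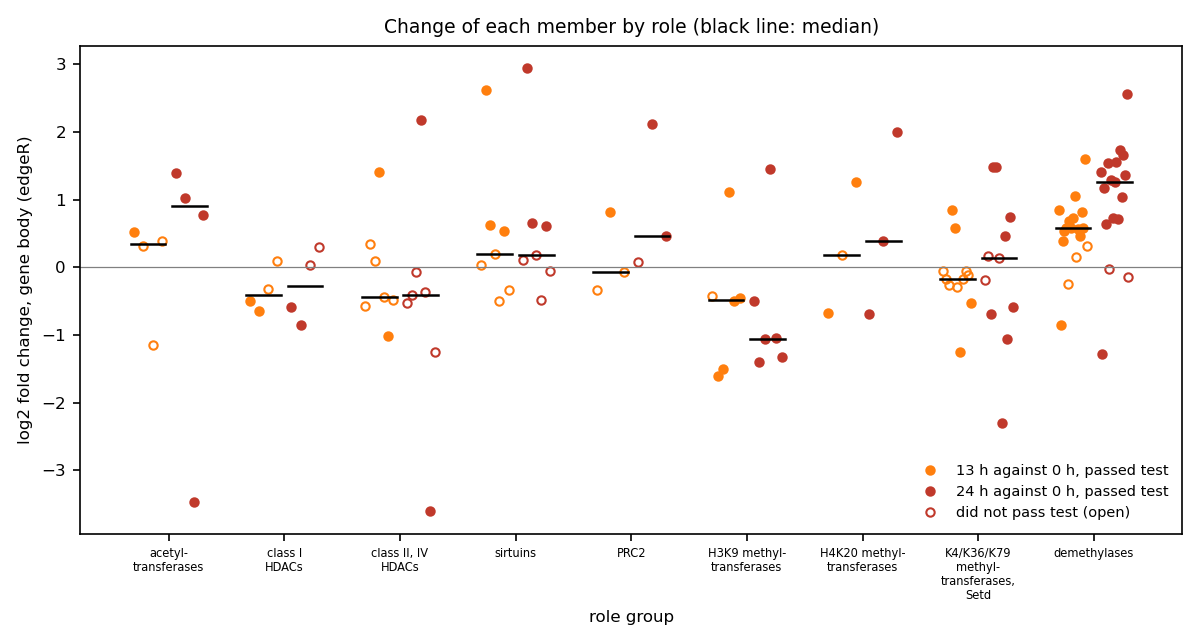
Log2 fold change of each member at 13 h (orange) and 24 h (red) against 0 h, by role group. Filled points passed the test, open points did not, and the black line is the median of the group, which at 24 h is 1.26 for the 17 demethylases and -1.06 for the 6 H3K9 methyltransferases.

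Sequences at the starts of 4 of these genes are shown because the genes hold the largest rise, the largest fall, a fall of an H3K9 methyltransferase gene and the largest difference between the lines. They are RefSeq promoters of build GRCm38.p6, from 250 bases before the start to 50 after it, written 5′ to 3′ on the gene's own strand. Capitals mark AGATAA or TGATAA, the letters bound by GATA factors, or their reverse complements TTATCT and TTATCA.
Sirt2, chr7:28766502-28766801, plus strand: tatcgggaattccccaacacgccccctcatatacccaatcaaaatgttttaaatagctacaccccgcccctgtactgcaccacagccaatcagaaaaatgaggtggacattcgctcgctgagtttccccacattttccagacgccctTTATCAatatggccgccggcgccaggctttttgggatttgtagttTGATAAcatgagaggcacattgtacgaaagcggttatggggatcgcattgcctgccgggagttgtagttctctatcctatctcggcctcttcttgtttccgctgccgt
Hdac7, chr15:97831446-97831745, minus strand, 1 of its 4 listed starts: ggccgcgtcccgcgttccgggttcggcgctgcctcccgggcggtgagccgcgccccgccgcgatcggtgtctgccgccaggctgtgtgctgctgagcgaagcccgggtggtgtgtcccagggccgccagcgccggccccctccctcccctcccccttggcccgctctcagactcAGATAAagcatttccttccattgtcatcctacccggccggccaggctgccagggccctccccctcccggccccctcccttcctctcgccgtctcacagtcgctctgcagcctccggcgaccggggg
Setdb1, chr3:95357153-95357452, minus strand: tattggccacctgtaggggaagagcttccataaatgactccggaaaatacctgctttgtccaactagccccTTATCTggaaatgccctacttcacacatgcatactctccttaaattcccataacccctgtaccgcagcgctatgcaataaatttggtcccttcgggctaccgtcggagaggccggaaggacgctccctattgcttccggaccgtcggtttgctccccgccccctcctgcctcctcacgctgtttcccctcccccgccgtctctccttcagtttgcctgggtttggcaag
Hdac11, chr6:91156565-91156864, plus strand: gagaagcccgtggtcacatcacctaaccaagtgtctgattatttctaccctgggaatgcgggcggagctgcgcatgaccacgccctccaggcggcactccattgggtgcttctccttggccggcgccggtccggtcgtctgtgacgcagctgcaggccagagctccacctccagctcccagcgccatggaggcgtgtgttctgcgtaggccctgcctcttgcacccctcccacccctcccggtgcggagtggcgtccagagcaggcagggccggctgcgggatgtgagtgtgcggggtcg
In Sirt2 the letters TGATAA open at -103 on the opposite strand and at -58 on the gene's strand, counted from the start. In Hdac7 AGATAA opens at -76, and in Setdb1 at -179 on the opposite strand. The Hdac11 window holds neither. The start of Hdac7 shown is the only one of its 4 listed starts that holds these letters. Setdb1 did not fall most among the H3K9 methyltransferase genes. Ehmt2 and Suv39h2 fell more at 24 h, and their listed promoters hold none of these letters. The windows shown are therefore no fair sample of the members. RefSeq promoters were listed for 52 of the 63 members, 71 in all, and 8 of the 71 held AGATAA or TGATAA on either strand, beside 18.6% of all 32851 listed promoters. Those 8 belong to Hdac7, Hdac9, Kdm4c, Kdm5d, Kdm8, Setd5, Setdb1 and Sirt2, which include genes that rose, genes that fell and genes that did not pass the test at 24 h. A match is a run of letters and not a measured binding site.

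Among the acetyltransferases, 3 of 4 genes rose by 24 h and Kat2a fell, beside 29.0% and 30.7% of all tested genes. Crebbp, which encodes CBP, stood at 238 and 200.3 CPM in G1E, 241, 263 and 259 at 0 h, 361 and 367 at 13 h and 675 and 664 at 24 h. Ep300, which encodes the related p300, gave 277 and 222 CPM in G1E, 240.4, 273 and 264 at 0 h, 320.3 and 323 at 13 h and 513 and 541 at 24 h. Both were higher in each estradiol-treated library than in any library at 0 h, and highest in the 24 h pair. Crebbp rose by 0.52 ± 0.11 (adjusted p = 0.0044) at 13 h and 1.40 ± 0.11 (adjusted p = 4.5e-06) at 24 h, and Ep300 by 1.02 ± 0.12 (adjusted p = 5.3e-05) at 24 h, with 0.31 ± 0.12 (adjusted p = 0.065) at 13 h. Kat2b, which encodes PCAF, gave 131 and 91.6 CPM in G1E, 129, 162 and 135 at 0 h, 162 and 212 at 13 h and 261 and 226 at 24 h. Its rise at 24 h was 0.77 ± 0.18 (adjusted p = 0.0043), and under total counts it was 0.39 and not called. The paralogue Kat2a, which encodes the SAGA acetyltransferase GCN5, went the other way, from 24.6 and 29.2 CPM in G1E and 23.9, 34.6 and 24.9 at 0 h to 6.57 and 18.6 at 13 h and 3.44 and 1.61 at 24 h. The 2 libraries at 13 h differed widely from each other, and both at 24 h lay under every other library. Kat2a changed by -1.14 ± 0.43 (adjusted p = 0.058) at 13 h, where it was -2.08 and called without the second library at that time and -1.24 and called under total counts. At 24 h the change was -3.46 ± 0.49 (adjusted p = 0.00017). From 13 h to 24 h it was -2.32 ± 0.49 (adjusted p = 0.0089), and without the second library at 13 h it was -1.38. How the fall divides between the steps therefore rests on that library. The peak at its start is also placed at Hspb9 and Rab5c, so which strand of it belongs to Kat2a was not settled. Of its neighbours, Dhx58, an antiviral RNA sensor gene, fell too (-4.47 ± 0.44) and Rab5c, an endosome GTPase gene, rose (1.37 ± 0.13).

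Of the 4 class I deacetylase genes, Hdac1 and Hdac2 fell and Hdac3 and Hdac8 did not pass the test at either time. Of all tested genes, 20.9% fell at 13 h and 30.7% at 24 h. Hdac1 and Hdac2 encode catalytic subunits of the NuRD, Sin3 and CoREST complexes. Hdac1 gave 103 and 99.7 CPM in G1E, 66.4, 72.1 and 71.4 at 0 h, 52.1 and 47.3 at 13 h and 48.3 and 44.5 at 24 h. Hdac2 gave 51.7 and 46.8 CPM in G1E, 49.97, 51.6 and 51.7 at 0 h, 29.1 and 35.98 at 13 h and 30.9 and 25.8 at 24 h. For both genes the estradiol-treated libraries lay below those at 0 h, and Hdac1 was already lower at 0 h than in G1E. The changes at 24 h were -0.59 ± 0.13 (adjusted p = 0.0022) for Hdac1 and -0.85 ± 0.15 (adjusted p = 0.00088) for Hdac2, and those at 13 h -0.49 ± 0.12 (adjusted p = 0.010) and -0.65 ± 0.15 (adjusted p = 0.0072). Without the second library at 13 h the call of Hdac1 at 13 h was lost (adjusted p = 0.064), and without the first that of Hdac2 (adjusted p = 0.078). Hdac3, the catalytic subunit of the NCoR complex, ran from 31.8 and 19.95 CPM in G1E through 21.8, 32.3 and 30.9 at 0 h and 20.01 and 25.4 at 13 h to 29.8 and 28.3 at 24 h. Its groups overlapped, and the change at 24 h was 0.03 ± 0.24 (adjusted p = 0.91).

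The class II and IV deacetylase genes moved in opposite directions: Hdac5 rose, Hdac7 fell and 5 of 7 did not pass the test. Under total counts Hdac5 still rose, while the other 6 were called lower at 24 h, beside the 42.4% of all genes called lower under that scaling. Both Hdac5 and Hdac7 encode class IIa deacetylases, which bind MEF2 transcription factors and shuttle between nucleus and cytoplasm. Hdac5 gave 33.4 and 27.8 CPM in G1E, 20.8, 19.7 and 14.9 at 0 h, 42.7 and 55.2 at 13 h and 101 and 65.04 at 24 h. The libraries at 0 h were lowest and those at 24 h highest, with no overlap between time points. Hdac5 rose by 1.41 ± 0.22 (adjusted p = 0.00085) at 13 h and 2.17 ± 0.23 (adjusted p = 2.3e-05) at 24 h. Hdac7 gave 192 and 137 CPM in G1E, 179, 207 and 275 at 0 h, 110.4 and 108 at 13 h and 17.7 and 18.5 at 24 h. On the log2 scale the drop between 13 h and 24 h was larger than that between 0 h and 13 h, and the 24 h pair agreed closely. Hdac7 changed by -1.02 ± 0.20 (adjusted p = 0.0027) at 13 h and -3.61 ± 0.23 (adjusted p = 1.4e-06) at 24 h. In RefSeq Hdac7 overlaps Slc48a1, a haem transporter gene, which changed by -1.61 ± 0.16 at 24 h, and whether the counts use strand is not stated, so reads of the overlap cannot be assigned. The 5 genes without a call at 24 h were Hdac4, Hdac6, Hdac9, Hdac10 and Hdac11, between -1.25 and -0.07.

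Sirtuins are NAD-dependent deacylases, and 3 of 7 rose at both times, Sirt2, Sirt3 and Sirt6, with none called lower. Of all tested genes, 20.1% rose at 13 h and 29.0% at 24 h. Under total counts Sirt2 alone still rose at 24 h and Sirt5, a mitochondrial sirtuin gene, was called lower. Sirt2, a mostly cytoplasmic deacetylase of tubulin that also acts on H4K16, gave 11.5 and 7.78 CPM in G1E, 12.7, 17.5 and 15.3 at 0 h, 74.2 and 112 at 13 h and 138 and 96.8 at 24 h. The 13 h and 24 h libraries overlapped each other and stood far above the other 5. Its change was 2.62 ± 0.25 (adjusted p = 4.5e-05) at 13 h, 2.95 ± 0.25 (adjusted p = 6.8e-06) at 24 h and 0.33 ± 0.27 (adjusted p = 0.40) from 13 h to 24 h. The start of Sirt2 lies in a peak that the authors placed at the start of Nfkbib, an NF-kappaB inhibitor gene (mm9 chr7:29550550-29555901). That peak rose by 1.75 ± 0.24 at 24 h, while the gene body of Nfkbib changed by 0.36 ± 0.19 (adjusted p = 0.13). Rinl, which neighbours Sirt2, changed by 2.39 ± 0.23 at 24 h as well. Sirt3, a mitochondrial deacetylase gene, and Sirt6, a nuclear H3K9 deacetylase gene, rose by 0.65 and 0.61 at 24 h, while Sirt1, Sirt4, Sirt5 and Sirt7 lay between -0.48 and 0.18.

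Of the 3 PRC2 genes, Ezh1 rose strongly, Ezh2 slightly and Eed did not pass the test. Ezh1 and Ezh2 encode the alternative H3K27 methyltransferase subunits, and Eed encodes the subunit that binds the finished mark. Ezh1 gave 47.9 and 40.5 CPM in G1E, 36.3, 37.5 and 38.9 at 0 h, 62.7 and 70.1 at 13 h and 177 and 149 at 24 h. The order was stepwise, with 13 h above 0 h and 24 h above 13 h and no overlap. Ezh1 rose by 0.82 ± 0.14 (adjusted p = 0.0011) at 13 h and 2.12 ± 0.14 (adjusted p = 1.5e-06) at 24 h. Ezh2 gave 309 and 255 CPM in G1E, 224, 281 and 289 at 0 h, 253 and 254 at 13 h and 327 and 402 at 24 h. The 24 h libraries lay above those at 0 h, and those at 13 h lay among them. Its change was -0.06 ± 0.15 (adjusted p = 0.77) at 13 h and 0.46 ± 0.15 (adjusted p = 0.022) at 24 h. Under total counts the change at 24 h was 0.08 and not called, and without the second library at 24 h it was 0.32 with an adjusted p of 0.15. Without the first library at 0 h it was 0.35, with an adjusted p of 0.069. With the first 2 digits of the sample titles as a block (explained with the comparison of 24 h with 13 h) it was 0.34, with an adjusted p of 0.18. Eed gave 100.3 and 86.96 CPM in G1E, 81.8, 105 and 92.5 at 0 h, 66.5 and 81.9 at 13 h and 92.7 and 104 at 24 h, with overlapping groups at 24 h (0.08 ± 0.15, adjusted p = 0.68). Per 100 reads of Ezh2, which is no ratio of levels because the genes differ in length, Ezh1 had 15.5 and 15.9 reads in G1E, 16.2, 13.4 and 13.5 at 0 h, 24.8 and 27.6 at 13 h and 54.0 and 37.1 at 24 h. This ratio within a library does not depend on the scaling, and it was 3.13-fold higher at 24 h than at 0 h. The exact two-sided permutation test gave p = 0.2, the smallest that 10 arrangements of 2 and 3 libraries allow.

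H3K9 methyltransferase genes fell, apart from Setdb2, and the same calls were made at 24 h under total counts. Ehmt2 encodes G9a, which with the Ehmt1 product GLP lays down mono- and dimethylation of H3K9 in euchromatin. Ehmt2 gave 88.95 and 78.7 CPM in G1E, 80.2, 93.6 and 83.8 at 0 h, 28.8 and 27.8 at 13 h and 33.6 and 31.9 at 24 h. The libraries at 13 h and 24 h lay far below the other 5, those at 13 h slightly lower than those at 24 h. Ehmt2 changed by -1.60 ± 0.14 (adjusted p = 2.7e-05) at 13 h and -1.39 ± 0.14 (adjusted p = 1.7e-05) at 24 h, and Ehmt1 by -0.42 ± 0.17 (adjusted p = 0.077) and -0.50 ± 0.17 (adjusted p = 0.028). Setdb1, an H3K9 methyltransferase gene whose product silences retroviral elements with KAP1, gave 897 and 878 CPM in G1E, 624, 569 and 762 at 0 h, 238 and 222 at 13 h and 245 and 381 at 24 h. Estradiol-treated libraries were lower than the other 5, and at 24 h the second library stood above the first. Setdb1 changed by -1.50 ± 0.20 (adjusted p = 0.00027) at 13 h and -1.06 ± 0.19 (adjusted p = 0.00086) at 24 h. It overlaps the ceramide synthase gene Cers2 in RefSeq, which changed by -0.81 ± 0.16 at 24 h.

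Suv39h1 and Suv39h2 encode the enzymes that trimethylate H3K9 in heterochromatin. Suv39h1 gave 74.2 and 75.3 CPM in G1E, 74.01, 79.8 and 86.2 at 0 h, 57.2 and 55.7 at 13 h and 41.5 and 35.7 at 24 h. Suv39h2 gave 43.99 and 52.3 CPM in G1E, 42.2, 44.4 and 44.2 at 0 h, 28.9 and 35.03 at 13 h and 19.2 and 15.7 at 24 h. Both stepped down at 13 h and again at 24 h without overlap of the time points. Suv39h1 changed by -0.50 ± 0.13 (adjusted p = 0.013) and -1.05 ± 0.14 (adjusted p = 9.2e-05), and Suv39h2 by -0.45 ± 0.16 (adjusted p = 0.048) and -1.32 ± 0.17 (adjusted p = 8.1e-05). Suv39h2 overlaps Dclre1c, a DNA repair nuclease gene with more reads, which changed by 0.17 ± 0.12 (adjusted p = 0.28) and 0.08 ± 0.12 (adjusted p = 0.58), and reads of the overlap cannot be assigned. The call of Suv39h2 at 13 h was lost without any 1 of the 9 libraries except the second at 13 h and with the title digits as a block (adjusted p = 0.072), and that of Suv39h1 at 13 h without any 1 of 3 (the third at 0 h and either at 13 h). From 13 h to 24 h Suv39h1 changed by -0.55 and Suv39h2 by -0.87, or by -0.45 and -0.74 without the second library at 24 h. Neither step was called with the title digits as a block (adjusted p = 0.13 and 0.11). That of Suv39h1 was not called with the replicate number as a block (adjusted p = 0.059). Setdb2, a further H3K9 methyltransferase gene, gave 53.6 and 56.7 CPM in G1E, 57.9, 60.1 and 63.7 at 0 h, 142 and 121 at 13 h and 149.6 and 183 at 24 h. It was high in the 4 estradiol-treated libraries and even across the other 5. Its change was 1.12 ± 0.13 (adjusted p = 0.00016) at 13 h and 1.46 ± 0.13 (adjusted p = 1.0e-05) at 24 h.

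Of the 3 H4K20 methyltransferase genes, Setd8 fell and both Suv420h genes rose at 24 h. Setd8, which adds the first methyl group and is needed in S phase and mitosis, gave 192 and 213 CPM in G1E, 180.3, 209.9 and 190.3 at 0 h, 106 and 137 at 13 h and 130.00 and 109 at 24 h. It was lower in the estradiol-treated libraries, with changes of -0.67 ± 0.15 (adjusted p = 0.0052) at 13 h and -0.70 ± 0.15 (adjusted p = 0.0024) at 24 h, and without the first library at 13 h the call at that time was lost (adjusted p = 0.064). Suv420h2, which adds the further methyl groups, gave 71.4 and 62.5 CPM in G1E, 75.04, 89.2 and 77.7 at 0 h, 187 and 199.95 at 13 h and 309.8 and 337 at 24 h. The time points formed separate steps upward, with 1.26 ± 0.12 (adjusted p = 5.2e-05) at 13 h and 2.00 ± 0.12 (adjusted p = 1.2e-06) at 24 h. Its paralogue Suv420h1 rose by 0.38 ± 0.12 (adjusted p = 0.020) at 24 h, and under total counts it was at -0.01 and not called.

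Of the 11 methyltransferase genes of H3K4, H3K36 and H3K79 and other Setd genes, 4 were higher and 4 lower at 24 h (2 and 5 under total counts). These shares lie near those of all tested genes, 29.0% and 30.7% (18.9% and 42.4% under total counts). Setd2, whose product trimethylates H3K36 and travels with elongating polymerase, gave 458 and 462 CPM in G1E, 308, 318 and 343 at 0 h, 498 and 474 at 13 h and 851 and 953 at 24 h. Setd1b, a catalytic subunit of the SET1 complexes that methylate H3K4, gave 172 and 161 CPM in G1E, 135, 136 and 121 at 0 h, 226 and 242 at 13 h and 425 and 309 at 24 h. Both were lowest at 0 h and highest at 24 h. Setd2 rose by 1.48 ± 0.11 (adjusted p = 2.7e-06) and Setd1b by 1.49 ± 0.14 (adjusted p = 1.3e-05) at 24 h. The paralogue Setd1a gave 163 and 201 CPM in G1E, 181, 161 and 174 at 0 h, 154 and 132 at 13 h and 107 and 107 at 24 h. It moved down where Setd1b moved up, with a change of -0.68 ± 0.13 (adjusted p = 0.0014) at 24 h. Dot1l, the H3K79 methyltransferase, gave 184 and 201 CPM in G1E, 182, 209.8 and 215 at 0 h, 166 and 223 at 13 h and 197 and 159.98 at 24 h, with overlapping groups and a change of -0.18 ± 0.16 (adjusted p = 0.34).

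Setd4, a methyltransferase with reported activity on histones, gave 31.4 and 41.5 CPM in G1E, 30.7, 35.8 and 37.4 at 0 h, 13.9 and 15.1 at 13 h and 6.79 and 7.31 at 24 h. It fell at each step without overlap, with changes of -1.26 ± 0.18 (adjusted p = 0.00050) at 13 h and -2.29 ± 0.19 (adjusted p = 6.3e-06) at 24 h. Setd6, which methylates the NF-kappaB subunit RelA, gave 14.8 and 17.5 CPM in G1E, 13.1, 17.4 and 12.8 at 0 h, 11.8 and 15.97 at 13 h and 6.23 and 7.53 at 24 h. The drop came after 13 h, with -0.05 ± 0.23 (adjusted p = 0.87) at 13 h and -1.07 ± 0.24 (adjusted p = 0.0031) at 24 h. From 13 h to 24 h Setd6 changed by -1.01. That step was -0.77 without the second library at 13 h, and -0.90 or -1.16 without the first or second at 24 h. With the title digits as a block it was -0.76 and not called (adjusted p = 0.20). Setd6 overlaps Cnot1, a subunit gene of the CCR4-NOT deadenylase, in RefSeq, and Cnot1 changed by 0.24 ± 0.13 (adjusted p = 0.14). The H3K36 dimethyltransferase gene Whsc1 fell by 0.59 at 24 h, Setd5 and Setd7 rose by 0.46 and 0.74, and Nsd1 and Setd3 were at 0.17 and 0.14 without a call. Under total counts Setd5 and Setd7 were not called. Whsc1, Setd3 and Setd7 overlap Nelfa, Ccnk and 5031434O11Rik in RefSeq, as Kdm5a and Sirt3 overlap Ccdc77 and Ric8, so the same limit on shared reads holds for them.

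Among the demethylases, 13 of 17 genes were higher at 13 h and 14 at 24 h, and Kdm1b was lower at both times. Under total counts 11 were higher and 1 lower at 13 h, and 12 were higher and 3 lower at 24 h (Kdm1b, Kdm3b and Kdm8). Kdm1a, which encodes LSD1, the H3K4 demethylase of the CoREST and Gfi1b complexes, gave 172 and 147 CPM in G1E, 118, 119 and 121 at 0 h, 221 and 208 at 13 h and 312 and 319.9 at 24 h. The libraries at 0 h were lowest and closely alike. Kdm1a rose by 0.84 ± 0.11 (adjusted p = 0.00026) at 13 h and 1.40 ± 0.11 (adjusted p = 4.0e-06) at 24 h. Its paralogue Kdm1b (LSD2) gave 26.6 and 20.6 CPM in G1E, 29.7, 35.1 and 31.96 at 0 h, 16.5 and 19.1 at 13 h and 13.1 and 13.5 at 24 h. Libraries at 0 h were highest there, and the change was -0.86 ± 0.18 (adjusted p = 0.0036) at 13 h and -1.28 ± 0.18 (adjusted p = 0.00017) at 24 h. Kdm1b overlaps the chromatin protein gene Dek in RefSeq, which rose by 0.68 at 24 h.

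Kdm7a, a Jumonji demethylase gene of the marks H3K9me2 and H3K27me2, gave 37.8 and 35.3 CPM in G1E, 68.1, 43.8 and 47.4 at 0 h, 174 and 147 at 13 h and 304 and 322 at 24 h. The steps did not overlap, although the first library at 0 h stood above the other two. It rose by 1.60 ± 0.18 (adjusted p = 0.00012) at 13 h and 2.56 ± 0.18 (adjusted p = 2.7e-06) at 24 h. The H3K27 demethylase gene Kdm6a (UTX) gave 256 and 177 CPM in G1E, 210.1, 229 and 209 at 0 h, 366 and 394 at 13 h and 686 and 683 at 24 h. Its relative Kdm6b (JMJD3) gave 138 and 145 CPM in G1E, 108, 115 and 125 at 0 h, 161 and 188 at 13 h and 317 and 283 at 24 h. Both climbed at each time point, to 1.66 ± 0.15 (adjusted p = 8.5e-06) for Kdm6a and 1.37 ± 0.12 (adjusted p = 8.5e-06) for Kdm6b at 24 h.

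Among the H3K9 demethylases, Kdm3a gave 136 and 92.5 CPM in G1E, 99.1, 126 and 114 at 0 h, 144 and 194 at 13 h and 339 and 318 at 24 h. Kdm4a, which also acts on H3K36, gave 168 and 133 CPM in G1E, 115, 110.00 and 102 at 0 h, 183 and 168 at 13 h and 264 and 271 at 24 h. The similar enzyme gene Kdm4c gave 260.5 and 184 CPM in G1E, 151, 134 and 139 at 0 h, 249.9 and 218 at 13 h and 338 and 341 at 24 h. All 3 genes were highest at 24 h, and Kdm4a and Kdm4c were lower at 0 h than in G1E. The changes at 24 h were 1.54 ± 0.19 (adjusted p = 6.0e-05), 1.29 ± 0.13 (adjusted p = 1.6e-05) and 1.26 ± 0.15 (adjusted p = 5.1e-05). At 13 h Kdm3a was at 0.59 ± 0.19 (adjusted p = 0.029), a call that was lost without the second library at 13 h (adjusted p = 0.24) and without the first or the third at 0 h (0.082 and 0.070). Kdm4d gave 18.4 and 22.9 CPM in G1E, 12.8, 12.4 and 16.5 at 0 h, 32.2 and 25.8 at 13 h and 33.2 and 49.2 at 24 h, a rise of 1.56 ± 0.22 (adjusted p = 0.00016) at 24 h. Kdm4b rose by 0.73 at 24 h, and Kdm3b, at -0.03, was not called.

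Of the H3K4 demethylases, Kdm5b gave 286 and 176 CPM in G1E, 150.1, 150.2 and 155 at 0 h, 203 and 245 at 13 h and 534 and 481 at 24 h. Kdm5c gave 156 and 138 CPM in G1E, 139, 143 and 147 at 0 h, 215 and 178 at 13 h and 279 and 306 at 24 h. In Kdm5b most of the rise came after 13 h. For Kdm5c the log2 steps were similar, 0.46 by 13 h and 0.57 from 13 h to 24 h. Under total counts its later step was 0.29 and not called. The changes at 24 h were 1.74 ± 0.18 (adjusted p = 2.4e-05) for Kdm5b and 1.03 ± 0.12 (adjusted p = 4.9e-05) for Kdm5c, beside 0.57 ± 0.18 (adjusted p = 0.031) and 0.46 ± 0.12 (adjusted p = 0.013) at 13 h. The call of Kdm5b at 13 h was lost without the second library at that time (adjusted p = 0.18), without any 1 of the 3 at 0 h (0.065 to 0.072) and under total counts (0.052). That of Kdm5c was lost without the first library at 13 h (adjusted p = 0.12). The H3K36 demethylase gene Kdm2a gave 263 and 218 CPM in G1E, 239, 238 and 236 at 0 h, 325 and 301 at 13 h and 537 and 537 at 24 h. Libraries at 0 h were nearly equal and those at 24 h were too, and the change was 0.40 ± 0.11 (adjusted p = 0.018) at 13 h and 1.18 ± 0.11 (adjusted p = 1.3e-05) at 24 h. The call at 13 h was lost without the first library at 13 h (adjusted p = 0.11) and without the second or the third at 0 h (0.054 and 0.056). Kdm5a and Kdm2b rose by 0.72 and 0.63 at 24 h, and Kdm8, at -0.15, was not called.

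**Figure D3:**
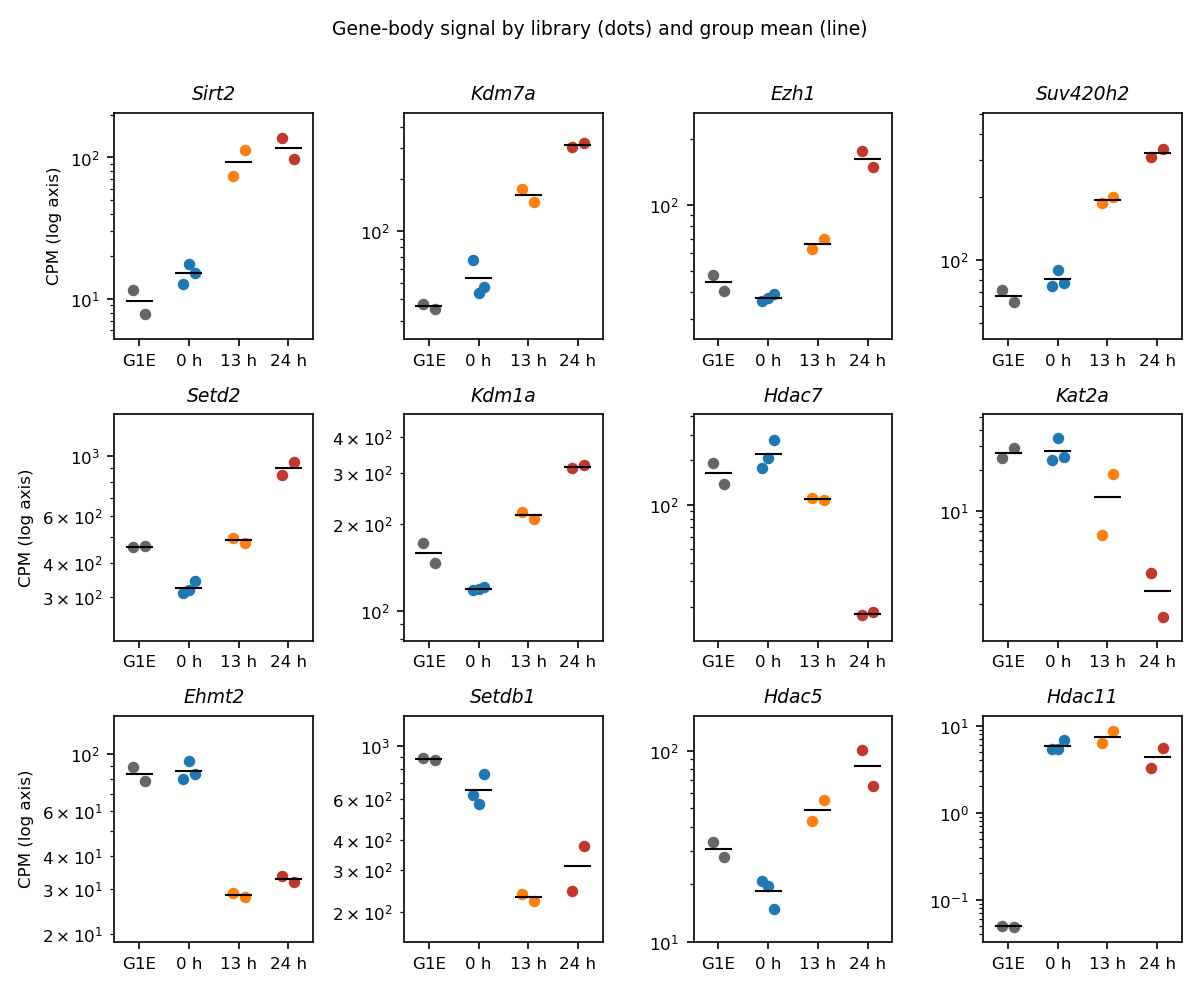
Gene-body CPM (log axis, with its own range in each panel) of 12 members in each library (dots) with the group mean (line), for G1E and for G1E-ER4 at 0 h, 13 h and 24 h. Sirt2, Ehmt2 and Setdb1 reach their new level by 13 h, and Hdac7 falls mainly between 13 h and 24 h. Kat2a is lowest at 24 h, with 13 h libraries that differ widely, and Hdac11 separates the lines.

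Between 13 h and 24 h, 22 members rose and 6 fell, beside 11.7% and 12.5% of all tested genes (24.2% together). The 22 include 11 of the 17 demethylases, and the 6 that fell were Hdac7, Kat2a, Setd4, Setd6, Suv39h1 and Suv39h2. The largest step up was that of Ezh1 (1.30 ± 0.15, adjusted p = 0.0013) and the largest step down that of Hdac7 (-2.59 ± 0.22, adjusted p = 0.00055). Under total counts 12 rose and 11 fell, beside 4.64% and 22.3%. Of the 17 demethylases, 6 rose and 2 fell under that scaling. The sample titles open with a number of unstated meaning, and no 13 h library shares its first 2 digits with a 24 h library. With those digits as a block in edgeR, 0 members rose and 1 fell, Hdac7, beside 0.159% and 0.268% of all genes, in a fit that the libraries at 0 h link and that has 2 residual degrees of freedom. The changes themselves stayed about as large. All 28 called members kept their sign, with a median size of 0.80 beside 0.78 without the block, and Ezh1 was at 1.22, Kdm5b at 1.14 and Crebbp at 0.84. At an unadjusted p under 0.05 the blocked fit gave 20 members higher and 7 lower, beside 10.9% and 12.1% of all genes. DESeq2 without the block called 22 higher and 7 lower, beside 16.0% and 15.5%. Fewer members were called in either direction without the second library at 13 h or without the second at 24 h. The shares of all genes in those fits are not given here, so a general loss of calls cannot be told apart.

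The comparisons with 0 h could be made within those opening numbers. The 13 h libraries share 15 and 16 with the first and second at 0 h, and the 24 h libraries share 18 with the third. On the log2 CPM scale Sirt2 differed by 2.54 and 2.68 in the pairs of 13 h with 0 h and by 2.92 between 24 h and the third library at 0 h. Hdac7 differed by -0.70 and -0.94 in those pairs and by -3.93 at 24 h, and Setdb1 by -1.39, -1.36 and -1.32. With the digits as a block, 23 members rose and 11 fell at 13 h, beside 18.5% and 19.4% of all genes, and 26 rose and 15 fell at 24 h, beside 24.5% and 26.3%.

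Before estradiol, 1 member was higher and 6 were lower in G1E-ER4 at 0 h than in G1E, beside 7.88% and 9.58% of all tested genes (17.5% together). The higher one was Hdac11, the sole class IV deacetylase gene, which had 5 and 2 reads in the G1E libraries and 412 to 1006 in those of G1E-ER4 at 0 h. In CPM it gave 0.0501 and 0.0483 in G1E, 5.39, 5.32 and 6.91 at 0 h, 6.26 and 8.62 at 13 h and 3.27 and 5.55 at 24 h. Both G1E libraries were near 0, and every G1E-ER4 library lay far above them, with or without estradiol. The fitted difference was 6.85 ± 0.49 (adjusted p = 9.3e-06). From summed reads it was 125-fold, with a 95% interval of 60.6 to 312 that covers counting error only. The peak at its start (mm9 chr6:91106150-91107351) had 0 reads in both G1E libraries and 202 over the 3 at 0 h, which is at least 31.6-fold higher when 3 reads over the G1E pair are taken as the floor. A sense peak inside the gene (mm9 chr6:91112700-91114151) had 3 reads over the G1E pair and 292 over the 3 libraries at 0 h, a ratio of 45.7 with a 95% interval of 15.5 to 223. Its neighbours Fbln2, an extracellular matrix gene, and Nup210, a nuclear pore gene, did not pass the test, at 0.62 ± 0.52 (adjusted p = 0.49) and 0.02 ± 0.17 (adjusted p = 0.95). Each line is a single group here, so GATA1-ER before estradiol cannot be told apart from other differences between the lines.

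The 6 members lower at 0 h than in G1E were Hdac1 (-0.54 ± 0.12, adjusted p = 0.013), Setd2 (-0.51 ± 0.11, adjusted p = 0.0087), Kdm4c (-0.65 ± 0.15, adjusted p = 0.014), Kdm1a (-0.42 ± 0.11, adjusted p = 0.026), Kdm4a (-0.47 ± 0.13, adjusted p = 0.032) and Kdm5b (-0.61 ± 0.18, adjusted p = 0.045). Of these, Setd2, Kdm4c, Kdm1a, Kdm4a and Kdm5b rose at 24 h and Hdac1 fell further. The comparisons share the libraries at 0 h, so a low value there enters both. With the title digits as a block, Hdac1, Setd2, Kdm1a and Kdm4a were no longer called, at changes of -0.53, -0.42, -0.51 and -0.72. No other library shares the digits of the second G1E library. The blocked comparison thus rests on the first G1E library and the third at 0 h. The share of all genes is not given for it, so a general loss of calls cannot be told apart. Without the first G1E library 1 member was called lower, and without the second or the third library at 0 h 3 were.

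The deposited dREG peaks, regions called where polymerase starts on both strands, give a second count at the starts of these genes. Each peak, or each strand of a peak where the table lists them apart, is called an element here. At the starts of 53 members lay 55 elements, and all 55 were tested. At 24 h, 25 rose and 7 fell, beside 22.7% and 29.5% of all elements tested (52.2% together), and beside 30.0% and 20.8% of the 12973 start elements. At 13 h 11 rose and 4 fell, beside 15.2% and 18.6% of all elements (33.8% together), and beside 16.0% and 13.4% of the start elements. Between 13 h and 24 h 10 rose and 2 fell, beside 5.28% and 7.82% (13.1% together), and beside 7.85% and 5.10% of the start elements. These 12 calls were 5 without the first library at 13 h or at 24 h and 2 without the second at either time. At 0 h against G1E 4 were higher (Hdac11, Hdac6, Kdm2b and Kdm7a) and that of Setd2 lower. Beside these stand 7.18% and 12.1% of all elements (19.3% together), and 6.97% and 4.54% of the start elements. Fewer member starts were called without the second G1E library. The strongest increases at 24 h were those of Hdac5 (mm9 chr11:102089400-102092151, 2.45 ± 0.27), Ezh1 (chr11:101085450-101088401, 2.10 ± 0.28) and Suv420h2 (chr7:4690250-4697051, 1.94 ± 0.20). Each was close to the change of its gene body.

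Of 51 members with a single start element, 26 rose over the gene body at 24 h, and at 20 of these the start element rose too, with 5 not called and that of Kdm4b lower. For the 12 that fell over the gene body, 4 start elements fell, 7 were not called and that of Ehmt1 rose (0.54). The 4 were those of Ehmt2 (mm9 chr17:35030550-35038151, -1.96 ± 0.27, a start shared with Zbtb12), Setd6, Setdb1 and Suv39h2. The start element of Setd4 was not called (0.01 ± 0.19, adjusted p = 0.97, mm9 chr16:93602950-93605451), although its gene body fell by 2.29. Start elements of Kdm1b (0.10 ± 0.30, adjusted p = 0.80) and Suv39h1 (0.29 ± 0.21, adjusted p = 0.26) were likewise not called. The elements of Setd4, Kdm1b and Ehmt2 count both strands together, and that of Kdm1b is also placed at Tpmt. Their values are therefore not those of the member's own strand alone. Kdm4b went in opposite directions. At its start (mm9 chr17:56463400-56466301) the sense strand gave 157, 216 and 224 CPM at 0 h and 97.7 and 91.3 at 24 h, and the upstream antisense strand 3.05, 4.19 and 2.12 and 13.3 and 14.1. Neither strand overlapped between those times, and they changed by -1.07 ± 0.25 (adjusted p = 0.0029) and 2.14 ± 0.35 (adjusted p = 0.00020), while the gene body rose by 0.73. Of the 13 members with no call over the gene body, Hdac3 and Sirt1 rose at the start (1.31 and 0.74). The element of Hdac3 also counts both strands and is placed at Rell2 as well.

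**Figure D4:**
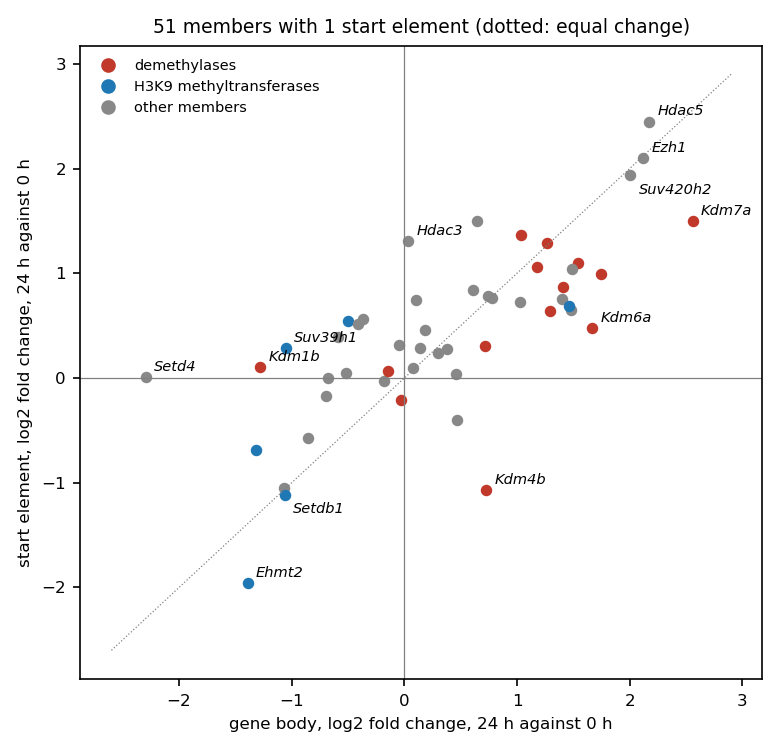
Log2 fold change at 24 h against 0 h of the gene body (horizontal axis) and of the start element (vertical axis) for 51 members with 1 start element, demethylases in red and H3K9 methyltransferases in blue. Hdac5, Ezh1 and Suv420h2 lie near the dotted line of equal change, while Setd4, Kdm1b and Suv39h1 lie left of 0 at a start that was not called and Kdm4b lies below 0.

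Hdac7 has 2 start elements that both fell by 24 h, and a difference in timing between them was not tested. The one at mm9 chr15:97671800-97675901 gave 83.95 and 59.8 CPM in G1E, 62.6, 46.8 and 87.9 at 0 h, 51.1 and 49.97 at 13 h and 3.66 and 2.30 at 24 h. The one at mm9 chr15:97660450-97662901 gave 29.5 and 22.9 CPM in G1E, 25.3, 31.3 and 32.8 at 0 h, 16.96 and 18.6 at 13 h and 8.69 and 12.7 at 24 h. The first overlapped 0 h at 13 h and lay far below at 24 h, whereas the second was lower at both times. The first changed by -0.38 ± 0.27 (adjusted p = 0.30) at 13 h and -4.46 ± 0.34 (adjusted p = 4.0e-07) at 24 h, and the second by -0.75 ± 0.25 (adjusted p = 0.032) and -1.48 ± 0.26 (adjusted p = 0.00032). A set of 3 elements near Setdb1, chosen after their values were seen, fell together with the element at its start at 24 h (-1.11 ± 0.31). They lie at mm9 chr3:95163400-95164751 (-1.81 ± 0.57), chr3:95174850-95179651 (-2.56 ± 0.29) and chr3:95205200-95206201 (-2.93 ± 0.96).

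Inside the members, on the strand of the gene, 24 of 56 tested elements rose and 4 fell at 24 h, beside 25.2% and 28.9% of all sense elements inside genes. On the opposite strand, 4 of 31 tested elements rose and 9 fell at 24 h, beside 17.3% and 32.2% of all antisense elements inside genes. An antisense element inside Hdac5 (mm9 chr11:102078600-102081801), also picked after its values were seen, gave 9.26 and 6.10 CPM in G1E, 7.70, 4.75 and 4.14 at 0 h, 0.144 and 0.384 at 13 h and 0.267 and 0.0931 at 24 h. It fell to near 0 (-4.88 ± 0.59, adjusted p = 1.6e-05) in the libraries in which the Hdac5 gene body was highest. An antisense element inside Kat2b (mm9 chr17:53725400-53728001), picked in the same way from those listed there, changed by -3.23 ± 0.51 (adjusted p = 0.00015). The Kat2b gene body was up at 0.77, and at 0.39 and not called under total counts. An antisense element inside Hdac4 (mm9 chr1:94020700-94022101), picked in the same way, gave 0.107, 0 and 0 CPM at 0 h, 0.953 and 1.10 at 13 h and 0.695 and 0.900 at 24 h, so few reads lie behind it. It was higher in each estradiol-treated library (4.43 ± 0.94, adjusted p = 0.0014), with the Hdac4 gene body at -0.07.

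Partner genes of these enzymes were read from lists of known complex members and related enzymes, and at most 4 that passed the test at 24 h are named from each. The counts below stand beside the 29.0% of all genes that rose and the 30.7% that fell at 24 h, or 18.9% and 42.4% under total counts. Of 8 PRC2 partners, 3 rose and 3 fell (1 and 4 under total counts). Phf19, a Tudor protein that brings PRC2 to H3K36-methylated chromatin, gave 1.71 and 1.26 CPM in G1E, 2.94, 1.73 and 1.78 at 0 h, 10.52 and 12.9 at 13 h and 18.3 and 16.6 at 24 h (3.02 ± 0.29, adjusted p = 1.4e-05). The histone chaperone gene Rbbp7 fell (-1.98 ± 0.14), the core subunit gene Suz12 rose (0.68 ± 0.12) and Aebp2 fell (-0.51 ± 0.11). Of 15 genes listed as further H3K4 and H3K36 methyltransferases, their relatives or core subunits, 8 rose and 2 fell (5 and 4 under total counts). Kmt2e rose by 2.22 ± 0.13 and Kmt2a, the MLL1 gene, by 1.14 ± 0.19, while Smyd5 fell (-3.96 ± 0.21), as did Wdr5, the core subunit gene of the MLL complexes (-1.45 ± 0.14).

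Of 23 genes of the deacetylase and LSD1 complexes, 8 rose and 7 fell at 24 h (7 and 9 under total counts), and 1 rose and 9 fell at 13 h, beside 20.1% and 20.9% of all genes. Rcor2, a CoREST paralogue gene whose product binds LSD1, gave 13.98 and 17.99 CPM in G1E, 11.3, 5.90 and 7.77 at 0 h, 1.60 and 1.86 at 13 h and 0.496 and 0.384 at 24 h (-4.24 ± 0.38, adjusted p = 9.2e-06). Its libraries were lower at each time without overlap, while Kdm1a rose. The NuRD subunit genes Mbd3 and Mta1 fell (-1.50 ± 0.18 and -1.49 ± 0.18) and Gatad2b rose (1.17 ± 0.14). Among 5 other Jumonji genes, Hr rose (3.96 ± 0.31) and so did Phf8 (1.02 ± 0.16), and under total counts 1 of the 5 was lower. Of 14 other acetyltransferase genes and subunits, 3 rose and 2 fell (1 and 7 under total counts). Brpf3, a scaffold of the HBO1 acetyltransferase, rose by 2.42 ± 0.13, Trrap by 0.64 ± 0.12 and Kat6b by 0.55 ± 0.14, and Tada2a, a partner of GCN5, fell (-1.37 ± 0.21). Of 11 tested readers of acetylated or methylated lysine, 2 rose and 5 fell (2 and 8 under total counts), among them the HP1-beta gene Cbx1 (-0.81 ± 0.13), the BET gene Brd3 (-0.88 ± 0.13) and L3mbtl2 (-1.13 ± 0.17), while the Polycomb reader gene Cbx7 rose (1.05 ± 0.19). Of the partners named, Suz12, Trrap and Kat6b lost their calls under total counts (0.29, 0.25 and 0.16), and no direction turned.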

How the data were processed

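The members and gene lists were chosen with earlier results of these data known. The deposited gene-body and peak tables hold raw read counts per library, per the file headers. BWA and mm9 are named in the submitters' processing notes; the sources used here do not give versions, the counting tool, the gene annotation, the use of strand or the removal of PCR copies. Annotations in the deposited peak table defined the start, sense and antisense elements. All 24391 genes and 42114 elements entered the fits in edgeR 4.0.16 (R 4.3.3), with TMM, the default expression filter (13825 genes and 35158 elements kept) and 4 group means, tested by robust quasi-likelihood on 5 residual degrees of freedom. Benjamini-Hochberg adjustment ran over the whole table, with 0.05 as the threshold. The SE is the absolute log2 change over the square root of F. The fit was tested on simulated counts. Depth was 37830789 to 139945759 gene-body reads and 15394427 to 59952454 element reads per library, and intervals cover counting error only.

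Members were described in full where called with a change of at least 1 (log2) and a mean count of at least 50, plus 17 described in any case, which gave 40; at most 4 partners per list are named. Mll2 was not matched. Promoter sequences and gene overlaps are from RefSeq (GRCm38.p6), and no coordinate was converted between builds. Alternatives were DESeq2 1.42.0, total counts, no filter, scaling of elements by gene bodies, blocks by replicate number or by the opening digits of the titles, and each library left out in turn.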

Additional observations from a re-analysis of the deposited data

How the results depend on the processing

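The 39 tested members described in full gave 2055 values under alternatives whose call did not change, 26 that gained a call and 142 that lost one. The sign turned in 59 of the 2055, none of them called in either fit and each at most 0.21 in size to begin with, and in 0 called values. Total counts gave 24 members lower at 24 h against 0 h, and 12 higher and 11 lower at 24 h against 13 h. Fitting without the filter gave 2 members higher at 0 h than in G1E. Same-numbered libraries deviated together between 0 h and 13 h (r = 0.46 and 0.44), where 2 pairs do not settle whether the numbers pair them, and not clearly between other groups (r from -0.15 to 0.16). With the replicate block, 17 members rose and 8 fell at 13 h, 29 rose and 14 fell at 24 h, 17 rose and 5 fell from 13 h to 24 h, and 2 were lower at 0 h than in G1E. That block ended the calls of Hdac1, Kdm2a, Kdm3a, Kdm5b, Kdm5c, Suv39h1 and Suv39h2 at 13 h (adjusted p from 0.054 to 0.14) and of Hdac1, Kdm1a, Kdm4a and Kdm5b at 0 h against G1E (0.075 to 0.14), with nearly the same changes. The crossed pairing of 13 h with 24 h, added after seeing the data, gave 19 higher and 6 lower. The block on title digits gave 0 higher and 1 lower at 24 h against 13 h, and 2 lower at 0 h than in G1E. With 1 library left out, 7 to 11 members fell at 13 h, 11 to 21 rose and 2 to 6 fell from 13 h to 24 h, and 1 to 9 were lower at 0 h than in G1E; a lone library was assumed to vary like the others. Start elements called between 13 h and 24 h (12) numbered 4 with gene-body scaling, 4 with title digits, 5 with total counts and 2 to 14 with 1 library left out. Those called at 0 h against G1E (5) numbered 2, 2, 3 and 1 to 5. Shares of all genes are not given for the replicate block, for the fits with 1 library left out or for the title digits at 0 h against G1E. A general loss of calls there cannot be told apart from a change particular to the members. The causes were not tested. Depth limits Hdac11 in G1E (7 reads) and the antisense elements.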
